A study of Mus musculus with 18 samples.

Results

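The chemokines of colon epithelial cells were followed through their messenger RNA in 4 groups of mice. Chemokines are small secreted proteins that guide leukocytes along a gradient, and each is read by receptors of a particular set of cells. The set was given as 10 genes by name, in 3 classes, and every array probe that carried 1 of these names was taken. The interferon-induced ligands Cxcl9, Cxcl10 and Cxcl11 act on Cxcr3, the receptor of activated T cells and NK cells. Cxcl1, Cxcl2 and Cxcl5 attract neutrophils through Cxcr2. The ligands called homeostatic here were Cxcl16, which binds Cxcr6, Ccl20, which binds Ccr6, Ccl25, which binds Ccr9, and Ccl28, which binds Ccr10 and Ccr3. Of the 10 genes, 9 had a probe among 31165 genes on the array, and Cxcl5 was not analysed here because no probe carried its name. These 9 genes had 14 probes, of which 12, from 8 genes, passed the filter on low signal and were tested.

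In the gut, epithelial cells make part of this chemokine supply themselves. Interferon-γ from T cells and NK cells induces the Cxcr3 ligands, with Irf1 among the transcription factors involved, whereas Tnf, Il-1 and microbial products induce Cxcl1, Cxcl2 and Ccl20 largely through NF-κB. Ccl25 guides lymphocytes to the small intestine above all, and Ccl28 is known as an epithelial product of the colon that attracts cells secreting IgA.

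Epithelial cells (EpCAM+, negative for CD45, CD3, lineage markers and the macrophage antigen encoded by Adgre1) were sorted from the colon of wild-type (WT) and Mbd2-deficient (Mbd2KO) mice and read on Illumina MouseWG-6 arrays. Mbd2 binds methylated CpG and can repress transcription, and the deficiency was in the whole mouse and not limited to the epithelium, on a C57BL/6 background with mice aged 8 to 22 weeks. The groups were Naive_WT and Naive_KO, without treatment, and DSS_WT and DSS_KO, after 6 days of 2% dextran sulphate sodium (DSS) in the drinking water, which damages the epithelial lining and brings on colitis. Each group had 4 samples, a sample may pool several mice, and the study asked whether Mbd2 sets what the epithelium expresses during colitis.

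Signal is given on the log2 scale after normalization, on which 1 unit is a doubling, and levels of different probes were not set against each other. Tests are from limma with Benjamini-Hochberg adjustment over all 21938 tested probes. A probe passed at an adjusted p under 0.05, and it passed the stricter rule of the study's methods at an adjusted p under 0.01 with a log2 fold change of at least 1 in size. The labels do not say from which experiments the samples came, so the p-values measure the spread between these samples.

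The sequence before each gene was searched for the elements through which these classes are known to be induced. Sequences of the 250 bases before the annotated start (RefSeq, mouse build GRCm38.p6) were at hand for 7 of the 10 genes, among them the 4 that responded to DSS below, whose sequences are printed 5′ to 3′ on the strand of the gene. Cxcl9 and Cxcl10 lie on the minus strand, at chr5:92328080-92328329 and chr5:92348890-92349139. Cxcl1 and Cxcl2 lie on the plus strand, at chr5:90890995-90891244 and chr5:90903649-90903898. Capitals mark matches to an interferon-stimulated response element (ISRE, TTTCNNTTTC on either strand), a gamma-activated sequence (GAS, TTCNNNGAA, which reads alike on both strands) or an NF-κB element.
Cxcl9: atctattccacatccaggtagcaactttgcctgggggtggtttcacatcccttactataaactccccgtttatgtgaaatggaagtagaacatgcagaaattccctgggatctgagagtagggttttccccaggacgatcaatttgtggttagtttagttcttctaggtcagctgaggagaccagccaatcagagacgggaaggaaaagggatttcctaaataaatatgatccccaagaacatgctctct
Cxcl10: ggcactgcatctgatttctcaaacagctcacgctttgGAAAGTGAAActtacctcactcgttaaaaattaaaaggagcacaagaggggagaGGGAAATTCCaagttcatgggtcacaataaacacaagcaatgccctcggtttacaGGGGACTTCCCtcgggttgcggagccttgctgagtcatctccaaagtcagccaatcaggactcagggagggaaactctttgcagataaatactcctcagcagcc
Cxcl1: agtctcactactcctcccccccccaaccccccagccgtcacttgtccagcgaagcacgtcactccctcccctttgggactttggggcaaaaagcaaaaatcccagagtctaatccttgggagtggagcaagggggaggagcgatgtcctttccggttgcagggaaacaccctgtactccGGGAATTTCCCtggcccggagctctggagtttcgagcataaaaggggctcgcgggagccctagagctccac
Cxcl2: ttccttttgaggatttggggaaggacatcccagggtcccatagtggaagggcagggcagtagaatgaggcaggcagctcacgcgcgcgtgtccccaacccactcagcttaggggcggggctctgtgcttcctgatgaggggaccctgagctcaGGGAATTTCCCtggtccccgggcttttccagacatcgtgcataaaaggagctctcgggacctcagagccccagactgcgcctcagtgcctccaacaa
Cxcl10 had an ISRE match at bases -213 to -204 and NF-κB matches at -159 to -150 and at -104 to -94, where matches on both strands overlap. The neutrophil attractants each had 1 stretch with overlapping NF-κB matches, from -71 to -61 in Cxcl1 and from -97 to -87 in Cxcl2, and the marked letters are the same in both genes. Ccl20 had an NF-κB match at -80 to -71. No match to these 3 motifs was found in the windows of Cxcl9, Ccl25 and Ccl28. Over 32851 promoter windows of 250 bases, 2.98% held the ISRE letters, 7.02% the GAS letters and 7.25% the NF-κB letters. As Mbd2 reads methylated CpG, CpG pairs were counted too, with 3 in Cxcl9, 5 in Cxcl10, 10 in Cxcl1, 9 in Cxcl2, 2 in Ccl20 and 4 in Ccl28, against a median of 6 over all windows. Ccl25 has 2 annotated starts, with 45 and 0 CpG pairs. Letters alone do not show binding or methylation, neither of which was measured in these samples.

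**Figure D1:**
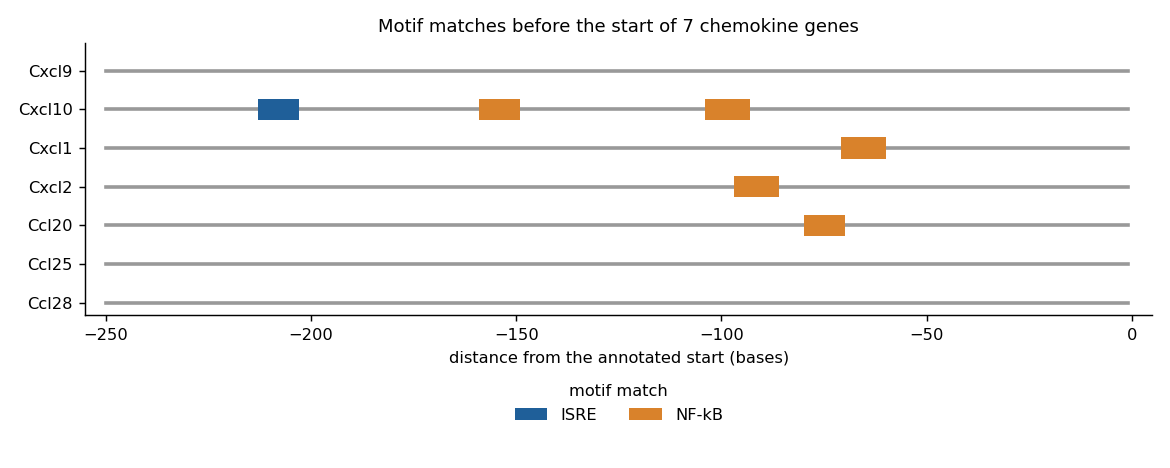
Positions of motif matches in the 250 bases before the annotated start of 7 chemokine genes; the horizontal axis is the distance from the start in bases and each coloured block is a match or a run of overlapping matches (ISRE blue, NF-κB orange). Cxcl10 holds the only ISRE match, at -213 to -204, and Cxcl10, Cxcl1, Cxcl2 and Ccl20 hold NF-κB matches.

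Cxcl9 had the widest range of the tested members. It read 5.20, 4.75, 5.55 and 5.42 in the Naive_WT samples, where it was above background on 3 of 4 arrays. In Naive_KO it read 9.52, 7.02, 8.19 and 6.63, so every Mbd2KO sample lay above every WT sample before any treatment. With DSS it read 7.87, 6.85, 9.74 and 8.97 in WT and 10.52, 9.64, 10.16 and 10.80 in Mbd2KO, where only the lowest Mbd2KO sample fell within the WT range. Without DSS, Cxcl9 was 6.10-fold higher in Mbd2KO (log2 2.61 ± 0.58 SE, n = 4 per group, limma adjusted p = 0.0175). With DSS the difference was 3.80-fold (log2 1.92 ± 0.58) and did not pass (adjusted p = 0.062, 95% interval of the log2 difference 0.70 to 3.15). DSS raised Cxcl9 8.73-fold in WT (log2 3.13 ± 0.58, adjusted p = 0.00304) and 5.43-fold in Mbd2KO (log2 2.44 ± 0.58, adjusted p = 0.0142). The value in WT fell to log2 1.71 with no background correction and passed in all 25 alternatives (highest adjusted p 0.0267). The DSS effects of both genotypes differed by -0.68 ± 0.82 on the log2 scale, which did not pass (adjusted p = 0.814).

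Cxcl9 was not a uniform response within groups. Naive_KO spanned 6.63 to 9.52, and its SD of 1.30 was like that of DSS_WT (1.26) and above those of Naive_WT (0.35) and DSS_KO (0.50). The genotype call without DSS was lost when Naive_WT replicate 10 (adjusted p = 0.0594) or Naive_KO replicate 15 (0.0508) was left out, and with no background correction, where the log2 difference was 1.35 (0.0915). With DSS, the genotype difference passed when DSS_WT replicate 3 was left out (log2 2.38, adjusted p = 0.0251), and also without Naive_KO replicate 13 (0.0311) or 16 (0.0472) and with repeat arrays as separate replicates (0.0199), and it was smallest without DSS_WT replicate 2 (log2 1.42, 0.206). Repeat arrays as separate replicates, here and below, count the same sample more than once, so their p-values can be too small. The DSS call in Mbd2KO was lost without DSS_KO replicate 8 (0.051) or Naive_KO replicate 16 (0.0512).

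Cxcl10, the other measured Cxcr3 ligand, had probes at 2 places of its transcript. On the brighter probe it read 7.91, 7.77, 7.71 and 8.37 in Naive_WT and 9.17, 8.35, 9.01 and 9.08 in Naive_KO, with 1 overlapping pair. DSS_WT read 9.11, 9.35, 10.06 and 9.23 and DSS_KO 9.92, 9.69, 9.84 and 10.33. Each DSS sample lay above all naive samples of its genotype. Without DSS, Cxcl10 was 1.95-fold higher in Mbd2KO (log2 0.96 ± 0.22, adjusted p = 0.0219), and with DSS 1.42-fold (log2 0.50 ± 0.22, adjusted p = 0.193). DSS raised it 2.83-fold in WT (log2 1.50 ± 0.22, adjusted p = 0.000731) and 2.06-fold in Mbd2KO (log2 1.04 ± 0.22, adjusted p = 0.00838).

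The genotype difference of Cxcl10 without DSS depended on the probe. The other probe read 6.85, 6.40, 6.79 and 6.66 in Naive_WT and 7.29, 6.36, 6.87 and 6.97 in Naive_KO, groups that overlap, with a log2 difference of 0.20 ± 0.22 (adjusted p = 0.634). On that probe the DSS samples read 7.54, 8.15, 8.28 and 8.23 in WT and 8.57, 8.19, 8.41 and 9.16 in Mbd2KO. DSS raised it by log2 1.37 ± 0.22 in WT (adjusted p = 0.00131) and by 1.71 ± 0.22 in Mbd2KO (0.000399). Over the 16 samples the probes correlated at r = 0.896. Their genotype differences without DSS stood 0.76 apart (exact permutation test, two-sided, p = 0.0286, the smallest that 4 against 4 samples allow, and 0.153 after adjustment over 16 such tests, added after the data were seen). The call on the brighter probe was lost without Naive_WT replicate 10 (adjusted p = 0.069) or 11 (0.0624) or Naive_KO replicate 13 (0.0635) or 15 (0.0554), with arrays scaled to a common median (0.0764), and in a fit of only the naive groups (0.0509).

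Cxcl11 was not detected on any of the 18 arrays (lowest detection p 0.257), with normalized values between 4.27 and 4.55, so it has only an upper bound at background and was not tested. C57BL/6 mice are known to carry a defective Cxcl11 gene that gives no functional protein, and this probe cannot separate that from low transcription.

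Among the neutrophil attractants, Cxcl1 read 10.94, 10.68, 10.66 and 10.49 in Naive_WT and 10.68, 10.00, 10.42 and 10.34 in Naive_KO. With DSS it read 11.55, 12.01, 12.18 and 11.99 in WT and 11.49, 11.47, 11.01 and 11.52 in Mbd2KO. Every DSS sample was above every naive sample, and every DSS_KO sample was below every DSS_WT sample. DSS raised Cxcl1 2.36-fold in WT (log2 1.24 ± 0.17, adjusted p = 0.000464) and 2.01-fold in Mbd2KO (log2 1.01 ± 0.17, adjusted p = 0.00179). With DSS the Mbd2KO value was lower by a log2 difference of -0.56 ± 0.17 (95% interval -0.92 to -0.21), which did not pass (adjusted p = 0.06). It passed without DSS_WT replicate 1 (log2 -0.69, adjusted p = 0.026), with array weights (0.0463) and with repeat arrays as separate replicates (0.0174), and it was smallest without DSS_KO replicate 7 (-0.44, 0.167). Without DSS the difference was -0.33 ± 0.17 (adjusted p = 0.254).

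Cxcl2, on its brighter probe, read 7.26, 7.12, 7.13 and 6.97 in Naive_WT and 7.71, 7.34, 6.85 and 7.09 in Naive_KO. It read 8.80, 8.98, 9.28 and 9.38 in DSS_WT and 9.39, 9.36, 8.44 and 9.55 in DSS_KO. The naive and DSS samples were apart and the genotypes overlapped in both. DSS raised it 3.97-fold in WT (log2 1.99 ± 0.22, adjusted p = 0.000245) and 3.83-fold in Mbd2KO (log2 1.94 ± 0.22, adjusted p = 0.000272). The genotype differences were 0.08 ± 0.22 with DSS (95% interval -0.39 to 0.54) and 0.13 ± 0.22 without it (-0.34 to 0.59). The second Cxcl2 probe rose by log2 1.35 ± 0.24 in WT (adjusted p = 0.00241) and 1.57 ± 0.24 in Mbd2KO (0.00109), values that became 0.63 and 0.88 with no background correction and still passed. Its genotype difference with DSS was 0.72 ± 0.24 (0.0896), which passed without DSS_WT replicate 3 (0.0447) and with repeat arrays as separate replicates (0.0267). That value stood 0.64 above the one of the brighter probe (exact permutation p = 0.0286, 0.153 after adjustment).

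**Figure D2:**
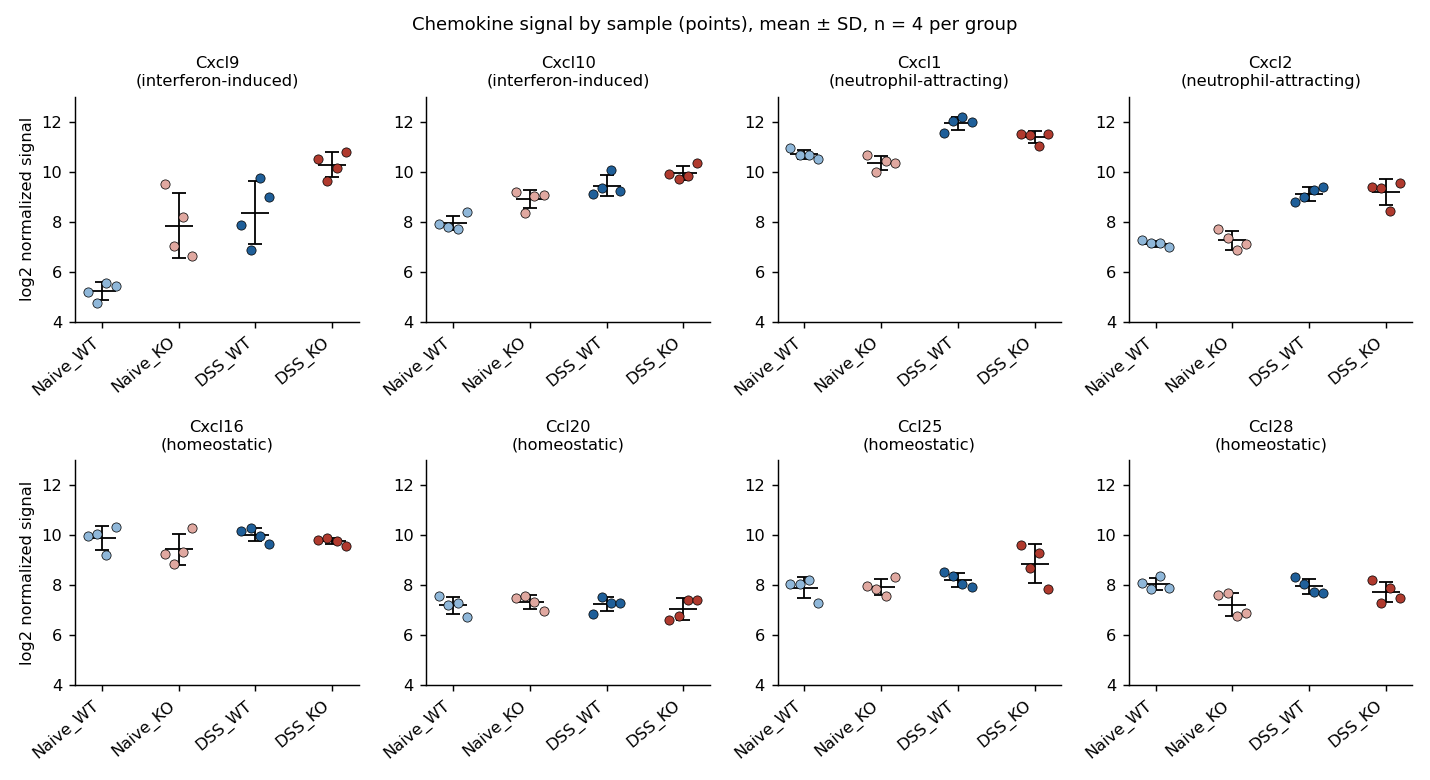
Log2 normalized signal of 8 chemokine genes in each of the 16 samples (vertical axis, 1 point per sample), by group, each gene on its brightest tested probe; horizontal bars are means and whiskers are SD (n = 4 per group). Cxcl9 climbs from 4.75 to 5.55 in Naive_WT to 9.64 to 10.80 in DSS_KO, Cxcl1 is lower in DSS_KO than in DSS_WT in every sample, and the 4 homeostatic ligands stay within overlapping ranges in most groups.

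The homeostatic ligands passed no test of genotype or DSS. Cxcl16, a membrane-anchored chemokine that can be shed, read 9.94, 10.04, 9.19 and 10.30 in Naive_WT, 9.24, 8.82, 9.32 and 10.29 in Naive_KO, 10.15, 10.29, 9.97 and 9.65 in DSS_WT and 9.82, 9.87, 9.76 and 9.57 in DSS_KO. All 4 groups overlapped, and the DSS effect was 0.15 ± 0.26 in WT (95% interval -0.41 to 0.71) and 0.33 ± 0.26 in Mbd2KO (-0.22 to 0.89). Its second probe gave -0.15 ± 0.29 and 0.14 ± 0.29.

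Ccl20 read 7.55, 7.19, 7.27 and 6.71 in Naive_WT, 7.46, 7.56, 7.31 and 6.96 in Naive_KO, 6.84, 7.54, 7.27 and 7.29 in DSS_WT and 6.60, 6.75, 7.42 and 7.41 in DSS_KO. Its groups overlapped throughout. The DSS effect was 0.05 ± 0.22 in WT (95% interval -0.41 to 0.52) and -0.28 ± 0.22 in Mbd2KO (-0.74 to 0.19), intervals that exclude a doubling in either direction. A second Ccl20 probe was at background on all 18 arrays.

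Ccl25 had its highest values in DSS_KO. The brighter probe read 8.03, 8.04, 8.20 and 7.26 in Naive_WT, 7.97, 7.86, 7.56 and 8.33 in Naive_KO, 8.50, 8.37, 8.04 and 7.91 in DSS_WT and 9.59, 8.69, 9.30 and 7.83 in DSS_KO. DSS_KO replicate 8 stood with the naive samples and the other 3 lay above all other groups. The DSS effect in Mbd2KO was 0.92 ± 0.30 (adjusted p = 0.0663) and the genotype difference with DSS 0.65 ± 0.30 (0.222). Without DSS_KO replicate 8 these were 1.26 (0.0108) and 0.99 (0.046), and with repeat arrays as separate replicates 1.07 (0.0207) and 0.85 (0.0498). Without DSS_KO replicate 5 they were 0.68 (0.189) and 0.40 (0.478). With arrays scaled to a common median, the DSS effect in Mbd2KO was 1.27 (0.00453), on a scale where the median of all probes moved to 0.23. On the second probe the DSS effect in Mbd2KO was 0.63 ± 0.25 (adjusted p = 0.132) and the genotype difference with DSS 0.68 ± 0.25 (0.125). DSS_KO was above Naive_WT by 0.97 ± 0.30 on the brighter probe (adjusted p = 0.0344) and by 1.08 ± 0.25 on the second (0.0067). That comparison mixes genotype and DSS.

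Ccl28 was the homeostatic ligand with a genotype gap before treatment. It read 8.07, 7.85, 8.35 and 7.89 in Naive_WT and 7.59, 7.66, 6.75 and 6.86 in Naive_KO, groups that do not overlap. DSS_WT read 8.32, 8.06, 7.73 and 7.69 and DSS_KO 8.21, 7.29, 7.86 and 7.49, which overlap. The naive difference of -0.82 ± 0.23 lay at the threshold (adjusted p = 0.0504). It passed under the stricter detection filter (0.0451), with median scaling (0.0137), with repeat arrays as separate replicates (0.044), and without DSS_WT replicate 1 (0.0499), DSS_KO replicate 5 (0.0418) or 6 (0.049) or Naive_KO replicate 14 (0.04). In these fits without a DSS sample the difference stayed at -0.82. It did not pass in the other 18 of 25 alternatives, where the adjusted p reached 0.131. The smallest log2 difference over all alternatives was -0.53. With median scaling, Ccl28 was also higher with DSS in Mbd2KO (log2 0.79, adjusted p = 0.00628, against 0.50 and 0.199 as normalized here).

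Counted together, DSS raised 6 of the 12 member probes in WT, all 6 under the stricter rule as well, and 6 in Mbd2KO, 5 of them under the stricter rule. These were the same 6 probes in both genotypes, those of Cxcl9, Cxcl10, Cxcl1 and Cxcl2, and none fell. Of all tested probes, 5.71% rose and 4.75% fell with DSS in WT and 4.9% rose and 4.52% fell in Mbd2KO, while 1.74% and 1.72% passed the stricter rule. The groups did not overlap for 6 member probes in each genotype, against 17% of all probes in WT and 15.9% in Mbd2KO. The median log2 change of the 8 genes was 0.78 in WT and 0.97 in Mbd2KO, against -0.01 and -0.02 over all probes.

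Genotype moved fewer members. Without DSS, 2 of the 12 probes were higher in Mbd2KO, those of Cxcl9 and Cxcl10, and none was lower, against 2.43% and 2.77% of all probes. Neither passed the stricter rule (0.656% of all probes), and 2 probes, of Cxcl9 and Ccl28, did not overlap (12.3%). With DSS, 0 of 12 passed in limma, against 2.46% of all probes higher, 3.17% lower and 0.862% under the stricter rule. An unadjusted p under 0.05 was reached by 7 of the 12, against 4862 of all 21938, and 1 probe, of Cxcl1, did not overlap (14.7%). The medians of the 8 genes, each on its brightest probe, were 0.09 without DSS and -0.06 with it, and those of the 12 probes 0.13 and 0.29, so that with DSS the sign depends on which probes are counted. The medians of all probes were -0.0011 and -0.0034. The count with DSS was 5 when the repeat arrays entered as separate replicates, a setting that counts the same sample more than once and can make p-values too small.

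Whether the genotypes responded differently to DSS was tested directly. No member probe passed (0 also at an unadjusted p under 0.05), and 0% of all probes did in limma, with 2339 at an unadjusted p under 0.05 and a smallest adjusted p of 0.131. For Cxcl9 the 95% interval of this difference ran from -2.41 to 1.04 and for Cxcl10 from -1.12 to 0.21, so at this group size a sizeable difference in either direction was not detectable for Cxcl9.

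**Figure D3:**
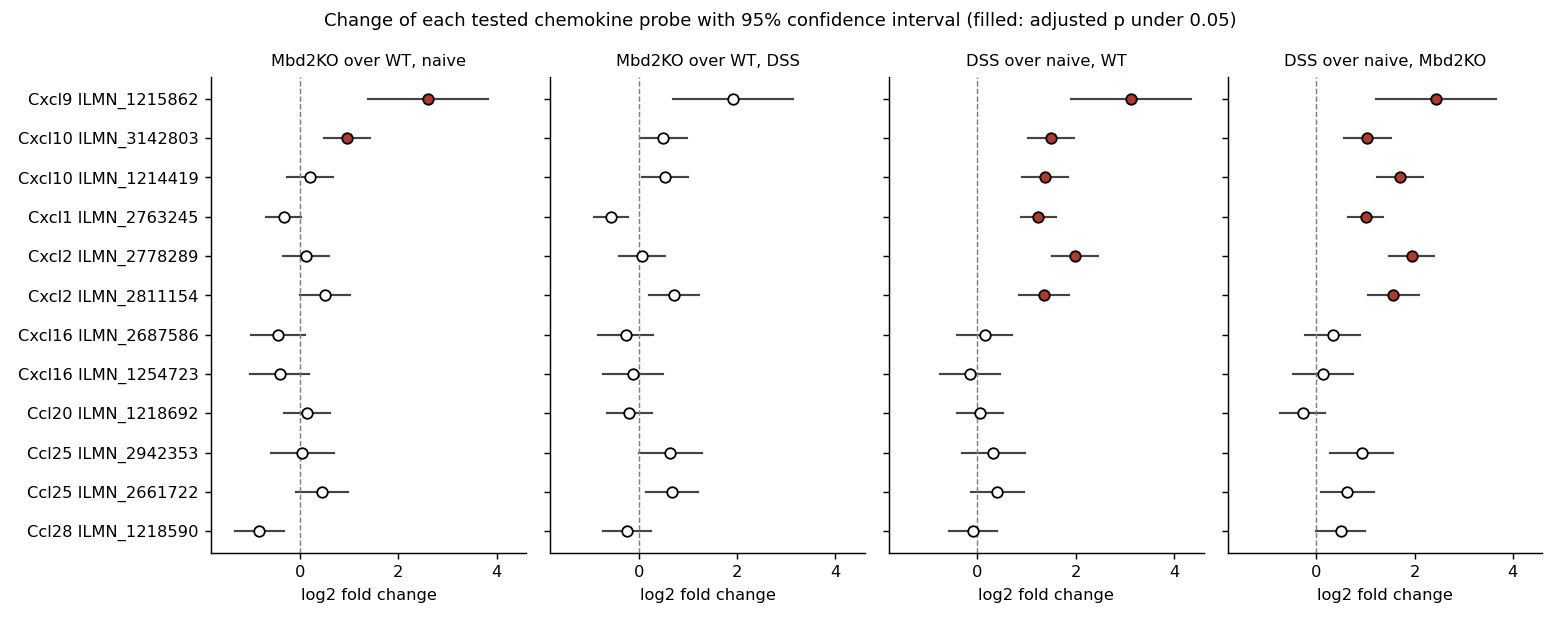
Log2 fold change (horizontal axis) of the 12 tested chemokine probes in 4 comparisons, with 95% confidence intervals as lines; filled points have an adjusted p under 0.05. The 6 probes of Cxcl9, Cxcl10, Cxcl1 and Cxcl2 are filled in both DSS panels, Cxcl9 and 1 Cxcl10 probe in the naive genotype panel, and none in the genotype panel with DSS.

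The means of Cxcl9, Cxcl10, Cxcl2 and Ccl25 ran in the same order, from Naive_WT through Naive_KO and DSS_WT to DSS_KO, each on its brightest probe. On the second Ccl25 probe Naive_KO (6.92) stood above DSS_WT (6.88). Of the neighbouring steps, only Naive_WT to Naive_KO passed for Cxcl9 and for the brighter Cxcl10 probe. Naive_KO and DSS_WT lay -0.52 apart for Cxcl9 (adjusted p = 0.568) and -0.54 for the brighter Cxcl10 probe (0.104). On the second Cxcl10 probe, which has the same order, these groups did not overlap and lay -1.18 apart (adjusted p = 0.00257), while Naive_WT to Naive_KO did not pass (0.634). Cxcl2 stepped once, between Naive_KO and DSS_WT (-1.86, adjusted p = 0.000148). Cxcl1 was lowest in Naive_KO and highest in DSS_WT, with its only passing step between Naive_WT and DSS_KO (0.68, adjusted p = 0.00946). No neighbouring groups differed for Cxcl16, Ccl20, Ccl25 or Ccl28.

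Across the 16 samples, Cxcl9 and Cxcl10 varied together (Pearson r = 0.917), as did Cxcl1 and Cxcl2 (0.883), and between these pairs r was 0.489 for Cxcl9 and Cxcl1, 0.752 for Cxcl9 and Cxcl2, 0.611 for Cxcl10 and Cxcl1 and 0.803 for Cxcl10 and Cxcl2. These values include the differences between the 4 groups and are a description. Among all tested genes, the patterns closest to Cxcl9 were those of Ido1 (r = 0.979), an enzyme that degrades tryptophan, and of the GTPases Igtp (0.974) and Irgm1 (0.973). Closest to Cxcl10 were Trim40 (0.948), Vcam1 (0.929) and Cd40 (0.929). For Cxcl1 they were Il1r2 (0.956), a decoy receptor of Il-1, Ptx3 (0.949) and an unnamed transcript (scl0001849.1_2273, 0.947), and for Cxcl2 they were Il11 (0.973), Osmr (0.971) and Timp1 (0.971). The homeostatic ligands had looser neighbours, led by Crk for Cxcl16 (0.924), Btn1a1 for Ccl20 (0.813), Bcl2l15 for Ccl25 (0.907) and Zfp738 for Ccl28 (0.892). The next neighbours were Ccdc85b (0.918) and Rassf1 (0.888) for Cxcl16, Klhl18 (0.811) and Baiap2 (0.784) for Ccl20, Tm4sf5 (0.861) and Cpt2 (0.856) for Ccl25, and Smim8 (0.888) and Prelid2 (0.885) for Ccl28.

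All 14 epithelial markers were detected on every array, and their summed signal lay between 135990 and 167363 linear units in all groups. Epcam itself ranged from 6.59 to 7.75, and of the 14 markers 1 fell with DSS in WT and none differed otherwise. Macrophage and monocyte markers were present as well, 12 of 13 on the array and 10 of them tested, with summed signal of 1455 to 1987 in Naive_WT, 1745 to 3319 in Naive_KO, 2534 to 4843 in DSS_WT and 4216 to 4514 in DSS_KO. Of the 10, 9 were higher with DSS in WT and 8 in Mbd2KO, while 1 was higher in Naive_KO than in Naive_WT and 0 differed by genotype with DSS. Of all tested probes, 5.71% were higher with DSS in WT and 4.9% in Mbd2KO, and 2.43% were higher in Naive_KO than in Naive_WT. By genotype with DSS 2.46% were higher and 3.17% lower, and these shares stand beside the marker counts below too. Adgre1, whose product served to sort macrophages out, was detected on 2 of 4 arrays of each naive group and on all DSS arrays (mean 6.41 in DSS_WT and 6.53 in DSS_KO). Cd14 averaged 9.99, 10.68, 10.58 and 10.94 in Naive_WT, Naive_KO, DSS_WT and DSS_KO. Ptprc, the gene of CD45, was detected on none of 8 naive arrays, 1 of 5 DSS_WT and 2 of 5 DSS_KO arrays, but the 4 tested pan-leukocyte markers all rose with DSS in both genotypes.

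Cxcl9 followed the summed macrophage markers inside some of the groups as well. In Naive_KO the summed signals were 3319, 2445, 3006 and 1745, in the same order of samples as Cxcl9 at 9.52, 7.02, 8.19 and 6.63. In DSS_WT they were 3076, 2534, 4843 and 3415 against Cxcl9 at 7.87, 6.85, 9.74 and 8.97, again in the same order. Naive_WT and DSS_KO spanned less in both measures, and their samples did not follow the same order. Cd14, the brightest of the 10, made up 58.7% to 71.1% of the sum in Naive_WT, 60.2% to 67.4% in Naive_KO, 37.4% to 53.0% in DSS_WT and 41.4% to 49.9% in DSS_KO. Over the other 9 markers, a sum added after the data were seen, the order still matched that of Cxcl9 in Naive_KO but not in DSS_WT. The correlation of Cxcl9 with the log2 sum was 0.963 over 16 samples and 0.866 for deviations from the group means, and without Cd14 it was 0.901 and 0.687. With other leukocyte markers Cxcl9 gave 0.844 and 0.766 (pan-leukocyte), 0.753 and 0.503 (neutrophil) and 0.756 and 0.463 (3 tested B and plasma cell markers). In Naive_KO these sums also had the sample order of Cxcl9, and in DSS_WT the neutrophil sums did. With the T and NK cell markers the values were 0.447 and -0.172. The pattern was thus not particular to macrophage markers. With all 10 macrophage markers, Cxcl10 gave 0.884 and 0.311, Cxcl1 0.585 and 0.352 and Cxcl2 0.803 and 0.316. Without Cd14 these were 0.873 and 0.211, 0.716 and 0.442, and 0.884 and 0.323. Over the 16 samples Cxcl2 reached 0.900 with the pan-leukocyte and 0.851 with the T and NK cell markers. Fewer cells of a type and less RNA per cell cannot be told apart in such bulk samples, and the part of macrophage and other leukocyte transcripts in the Cxcl9 signal was not tested.

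**Figure D4:**
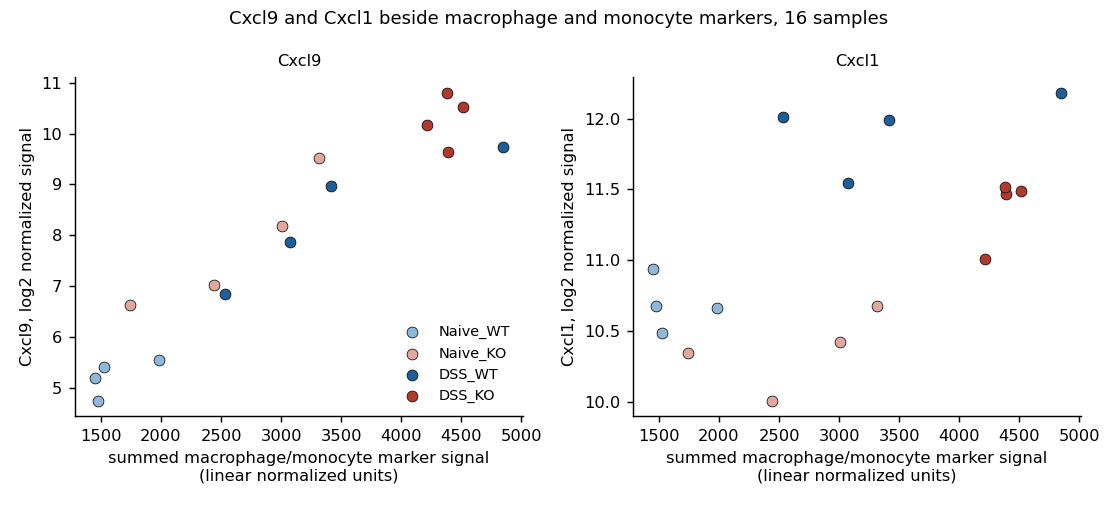
Log2 normalized signal of Cxcl9 (left) and Cxcl1 (right) in each of the 16 samples against the summed linear signal of 10 macrophage and monocyte markers; colours are the 4 groups. Cxcl9 climbs with the markers over the 16 samples (r = 0.963 with the log2 of the sum), though not in the order of samples within Naive_WT and DSS_KO, whereas for Cxcl1 (r = 0.585 with the log2 of the sum) all DSS_WT samples lie above all DSS_KO samples, also the 3 DSS_WT samples with less marker signal.

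Neutrophil markers were mostly at background without DSS, with Csf3r detected on 1 of 4 arrays of each naive group, S100a8 on 1 of 4 Naive_KO arrays and Elane on 2 of 4 Naive_WT arrays and no DSS array. With DSS they spread widely. Their summed signal over 4 tested markers was 91 to 106 in Naive_WT, 89 to 110 in Naive_KO, 191 to 850 in DSS_WT and 228 to 2676 in DSS_KO. S100a8 ranged from 5.46 to 8.93 in DSS_WT and from 6.76 to 10.58 in DSS_KO, S100a9 from 5.52 to 8.07 and from 5.77 to 9.70, and 0 of the 4 differed by genotype. Within groups, the log2 sum correlated with Cxcl2 at 0.613, with Cxcl1 at 0.515, with Cxcl9 at 0.503 and with Cxcl10 at 0.298. Over the 16 samples these were 0.880, 0.745, 0.753 and 0.750, so the link was not particular to the neutrophil attractants. T and NK cell markers, 6 tested, summed to 212 to 295, 223 to 250, 297 to 380 and 286 to 343 in Naive_WT, Naive_KO, DSS_WT and DSS_KO, and of the 6, 3 rose with DSS in WT, 0 in Mbd2KO, and 2 were lower in DSS_KO than in DSS_WT. Lck was detected on all 18 arrays, Cd3d and Cd3g on none of 8 naive arrays but on 5 and 4 of 5 DSS_WT and 3 and 2 of 5 DSS_KO arrays, and Cd3e on 3 of 18 arrays. Fibroblast markers, 7 tested, summed to 2957 to 5887 in Naive_WT, 2912 to 3782 in Naive_KO, 5942 to 7001 in DSS_WT and 4284 to 4959 in DSS_KO, so that DSS_KO lay below DSS_WT in every sample, as Cxcl1 did. Dcn made up 62.4% to 76.7% of this sum in the DSS groups. Over the other 6 markers the groups overlapped, with 1565 to 2474 in DSS_WT and 1000 to 1769 in DSS_KO. Dcn, Lum and Pdgfra were lower in every DSS_KO sample, while Col1a1, Col1a2, Col3a1 and Vim overlapped between the DSS groups. Of the 7, 4 rose with DSS in WT and 1 was lower in DSS_KO than in DSS_WT, with a median genotype difference of -0.58 with DSS. Cxcl1 correlated with the log2 sum of the T and NK cell markers at 0.903 over 16 samples (0.540 within groups) with that of the fibroblast markers at 0.833 (0.273) and with that of the pan-leukocyte markers at 0.813 (0.581). Lck made up 43.8% to 59.9% of the T and NK cell sum, and without it, and without Dcn, these values were 0.909 (0.581) and 0.778 (0.382). Ly6g was not analysed here. The part of these cells in the chemokine signals was not tested.

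The receptors of the members were not measurable in these cells. All 8 (Cxcr3, Cxcr1, Cxcr2, Cxcr6, Ccr6, Ccr9, Ccr10 and Ccr3) had probes, and 0 passed the detection filter. Cxcr3 was detected on 3 of the 10 DSS arrays and Ccr6 on 2 Naive_KO arrays and 1 DSS_WT array, and the others on at most 1 array.

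Among genes that induce the interferon ligands, Irf1, a transcription factor, averaged 11.87 in Naive_WT, 12.70 in Naive_KO, 12.75 in DSS_WT and 13.30 in DSS_KO, the same order of groups as Cxcl9. It was higher in Mbd2KO without DSS (log2 0.83 ± 0.18, adjusted p = 0.0174) and measured 0.55 ± 0.18 with it (0.0888). DSS raised it in WT (0.88 ± 0.18, adjusted p = 0.00674) and it measured 0.60 ± 0.18 in Mbd2KO (0.0512). It passed the stricter rule only between DSS_KO and Naive_WT (1.43 ± 0.18). Ifng was detected on 4 of 18 arrays, 3 of them DSS_KO and 1 Naive_KO, and on no WT array, so that only a bound can be given, at least 1.04-fold higher in DSS_KO than in DSS_WT, which did not pass (adjusted p = 0.354).

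Of 12 tested NF-κB inducers, 3 rose with DSS in WT and 2 in Mbd2KO, against 5.71% and 4.9% of all probes, and 1 was higher by genotype in each state. Il1b rose with DSS by 2.56 ± 0.35 in WT (adjusted p = 0.000464) and 2.12 ± 0.35 in Mbd2KO (0.00159). Tnf rose by 1.21 ± 0.19 in WT (adjusted p = 0.000894) and by 0.92 ± 0.19 in Mbd2KO (0.00619), and it was higher in Mbd2KO without DSS (0.98 ± 0.19, 0.00767) and with it (0.69 ± 0.19, 0.0404). None of 3 proteases that trim or shed chemokines (Dpp4, Adam10 and Adam17) passed in any of the 4 comparisons. Of 3 tested atypical receptors, which bind chemokines without signalling like the others, Ackr1 was lower in Mbd2KO without DSS (-1.13 ± 0.24, adjusted p = 0.0146) and with it (-0.98 ± 0.24, 0.0251). Ackr1 is known from venules, and 5 of 6 tested endothelial markers were also lower in DSS_KO than in DSS_WT (summed signal 357 to 413 against 557 to 850), where 3.17% of all probes were lower. Without DSS, 0 of the 6 differed by genotype (median log2 difference -0.36, summed signal 382 to 460 in Naive_KO against 464 to 618 in Naive_WT), and Ackr1 itself was detected on 1 of 4 Naive_KO arrays.

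Other CC chemokines were read beside the members. Of 12 tested, 10 rose and 1 fell in WT, 8 of the 12 under the stricter rule, and 9 rose and 1 fell in Mbd2KO, 7 under the stricter rule, with median changes of 1.40 and 1.18. Of all tested probes, 5.71% rose and 4.75% fell in WT and 4.9% and 4.52% in Mbd2KO, with 1.74% and 1.72% under the stricter rule. In the same samples the 4 pan-leukocyte markers, 9 and 8 of 10 macrophage markers in WT and Mbd2KO and 4 of 7 fibroblast markers in WT rose too, and their part in these rises was not tested. Monocyte attractants rose in both genotypes, Ccl2 by 1.70 ± 0.28 in WT and 1.75 ± 0.28 in Mbd2KO and Ccl7 by 1.62 ± 0.24 and 1.66 ± 0.24. Attractants of monocytes and T cells rose likewise, Ccl3 by 1.62 ± 0.28 and 1.39 ± 0.28, Ccl4 by 2.25 ± 0.40 and 1.81 ± 0.40, and Ccl5 by 1.58 ± 0.33 and 1.63 ± 0.33. In each naive group Ccl3 was detected on 2 of 4 arrays and Ccl5 on 1 of 4, so these rises start from a level at or near background. The same holds for Ccl19, detected on 1 of 4 Naive_WT and 2 of 4 Naive_KO arrays, and for Ccl17, detected on no naive array and at least 1.62-fold higher in DSS_WT than in Naive_WT. Ccl17 passed the detection filter only through DSS_WT, so its place among the ligands that rose in WT rests on that selection. Ccl11, an attractant of eosinophils, rose by 1.31 ± 0.23 and 1.27 ± 0.23, Ccl9 by 1.17 ± 0.22 and 0.88 ± 0.22, and Ccl21a, whose sequence is shared with close copies, by 1.48 ± 0.32 and 1.1 ± 0.32. Ccl6 fell by 0.89 in WT and by 1.01 in Mbd2KO (adjusted p = 0.00736 and 0.00384).

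By genotype with DSS, 1 of these 12 ligands and 2 of 5 other CXC and CX3C ligands were lower in Mbd2KO and none was higher, against 3.17% and 2.46% of all probes. Ccl17, a ligand of Ccr4, was detected on all DSS_WT arrays (mean 5.59) and on no DSS_KO array (mean 4.55), at least 1.56-fold higher in DSS_WT. It was detected in no other group, so it passed the detection filter only through DSS_WT, where it is high. Its place among the lower ligands rests on that selection and is no support for a genotype difference. Without DSS, Ccl9 was higher in Mbd2KO (0.89 ± 0.22, adjusted p = 0.0275). Among the CXC and CX3C ligands, Cxcl12 and Cxcl14 were lower in DSS_KO than in DSS_WT (-0.95 ± 0.25, adjusted p = 0.0338, and -0.84 ± 0.23, 0.0398). The endothelial and fibroblast marker sums given above were lower in every DSS_KO sample than in every DSS_WT sample too, and their part in these differences was not tested. For the fibroblast sum this separation was lost without Dcn. Cxcl13, the attractant of B cells, rose with DSS in Mbd2KO (2.07 ± 0.42, adjusted p = 0.00646) and measured 0.82 ± 0.42 in WT (0.228), and the difference between these effects did not pass (1.25 ± 0.60, 0.472).

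**Figure D5:**
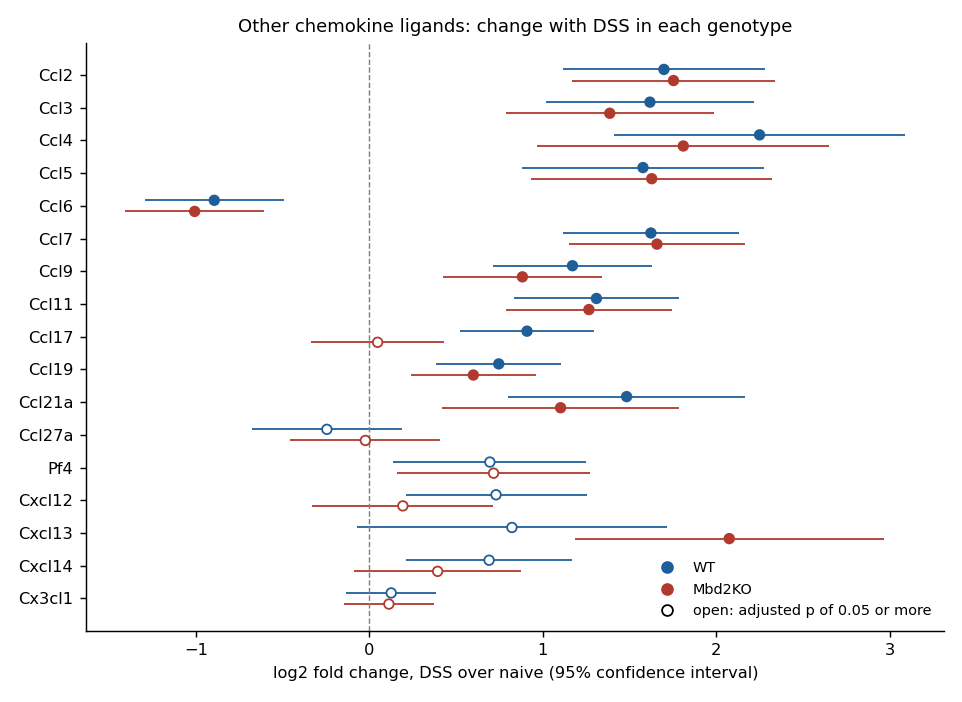
Log2 fold change of DSS over naive (horizontal axis, lines are 95% confidence intervals) for 17 other chemokine ligands in WT (blue) and Mbd2KO (red), filled where the adjusted p is under 0.05. Ccl2, Ccl3, Ccl4, Ccl5, Ccl7, Ccl9, Ccl11, Ccl19 and Ccl21a are filled to the right of 0 in both genotypes, Ccl6 to the left in both, Ccl17 in WT alone and Cxcl13 in Mbd2KO alone. Ccl17 was tested only because of its DSS_WT arrays.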

How the data were processed

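Colon epithelial RNA from 4 groups was hybridised to Illumina MouseWG-6 arrays whose probes are 50 bases long. The deposited table gives mean bead intensity for 45281 probes and 974 control probes on 18 arrays, exported without normalization or background subtraction, and a detection p-value, deposited beside each intensity, for the share of negative controls brighter than the probe. The submitters' processing notes name lumi and limma without versions. Another 54 columns of array and bead statistics were not used. The neqc function (limma 3.58.1, R 4.3.3) took background from the 936 negative controls, added an offset of 16, equalised the arrays by quantiles and returned log2 values, which compresses low signal. Probes detected (p under 0.05) on at least 4 arrays were kept, 21938 of 15757 genes, and 18851 to 20618 probes were detected per array. Arrays are not counts, and their number limits the precision.

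The repeat arrays 4R and 5R were averaged with 4 and 5, since they differed less from these (SD of log2 difference 0.194 and 0.236) than other arrays of the group did from each other (0.287 or more). One limma model with 4 group means was fitted to 16 samples (12 residual and 4.71 prior degrees of freedom), with Benjamini-Hochberg adjustment, and was tested on simulated data. Other filters, background corrections, scalings, weights, sample sets and treatments of the repeats were tried.

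The members, gene lists and rules were chosen with earlier results of these data known. All members were named at every probe, and a gene's value is that of its brightest tested probe. Named as well were receptors of the members, listed pathway genes passing the stricter rule in any comparison (some items are not reported here), the 3 genes most correlated with each member, and set cell type markers. Other genes were chosen after their values were seen. Probe positions in the file have no stated build and are not printed. The Mbd2 probe was at background on all 18 arrays (lowest detection p 0.151), so the genotype labels are taken as given.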

Additional observations from a re-analysis of the deposited data

Results flagged for a closer look

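In 2 of 48 sets of 4 values (12 probes in 4 groups), a sample stood apart from the other 3, where chance gives about 1 in 20. For the second Cxcl10 probe, ILMN_1214419, DSS_WT replicate 1 read 7.54 against 8.15 to 8.28 in the others, and the gap was 0.831 of the group's range. For Cxcl1, DSS_KO replicate 7 read 11.01 against 11.47 to 11.52, a gap of 0.905 of the range. It was also the DSS_KO sample with the fewest detected probes, 18851. Without it, the log2 difference of Cxcl1 between Mbd2KO and WT with DSS was -0.44 (limma adjusted p = 0.167), against -0.56 with it.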

How the results depend on the processing

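No paired analysis was possible because the 4 groups share no replicate numbers. Slide as a block was not run, since the table names no slides. Of 1488 recomputed values, 1424 kept their direction and side of the threshold. The count of member probes differing by genotype with DSS was 0, and became 5 with repeat arrays as separate replicates (which counts the same sample more than once), 1 with array weights and 0 to 2 when single samples were left out. Without DSS it was 2, and became 1 with no background correction, 1 with only the groups of the contrast, 3 with the stricter detection filter and with repeat arrays as separate replicates, and 0 to 3 with single samples left out. The DSS counts, 6 and 6, ran from 6 to 6 in WT and 5 to 7 in Mbd2KO with single samples left out and from 6 to 7 and 5 to 9 over all alternatives (7 and 9 with median scaling), and the interaction count stayed at 0. All reversals were of values that passed no test, and their cause was not tested. With median scaling the all-probe medians became 0.24 and 0.23 for DSS in WT and Mbd2KO and -0.08 and -0.07 for genotype with and without DSS. There, Cxcl2 by genotype with DSS was -0.035, Ccl25 by genotype without DSS -0.038, the second Cxcl16 probe 0.15 and Ccl28 0.26 for DSS in WT, and Ccl20 0.027 for DSS in Mbd2KO. With array weights, the second Cxcl16 probe was 0.012 by genotype with DSS, Ccl20 -0.0033 for DSS in WT and the second Ccl25 probe -0.062 for the interaction, and with no background correction the Cxcl9 interaction was 0.23. With single samples left out, values crossed 0 for Cxcl2 (-0.047 to 0.32 and -0.028 to 0.26 by genotype with and without DSS, -0.18 to 0.20 for the interaction), Ccl20 (-0.017 to 0.27 by genotype without DSS, -0.10 to 0.19 for DSS in WT), Ccl25 (-0.16 to 0.17 by genotype without DSS), Ccl28 (-0.21 to 0.015 for DSS in WT), Cxcl16 (-0.078 to 0.29 for DSS in WT, -0.013 to 0.48 for the interaction) and its second probe (-0.23 to 0.11 by genotype with DSS, -0.020 to 0.46 for DSS in Mbd2KO). Signal near background limits Cxcl9 in Naive_WT, Cxcl11, Ifng, the receptors, Ackr1 and Cxcl13 in Naive_KO and Ccl3, Ccl5, Ccl17 and Ccl19 without DSS.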
